A study of Mus musculus with 36 samples.

Results

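The genes described here encode the main phase II conjugation enzymes of mouse liver: the soluble glutathione S-transferases (Gsta, Gstk, Gstm, Gsto, Gstp and Gstt), the UDP-glucuronosyltransferases (Ugt1a, Ugt2a and Ugt2b) and the sulfotransferases (Sult1 to Sult5). They were taken by symbol, each beginning with one of these stems followed by a digit or, for Sult, a letter, and pseudogene names holding -ps were left out. This gave 56 of the 21955 genes in the count tables, namely 20 glutathione S-transferase, 18 UDP-glucuronosyltransferase and 18 sulfotransferase genes. Of these, 47 passed the filter on low counts and could be tested, among 13436 genes that passed it in all. Of the 47, Gsta1, Sult1e1, Sult2a3, Sult2a4, Sult2a5 and Sult2a7 reached the 3 libraries that the filter asks for in old liver only and Ugt2b38 in young liver only, so a call between the ages on one of these 7 is given no weight. The 9 that did not pass were Gsto2, Gstp2, Gstt4, Sult1c1, Sult2a6, Sult2b1, Sult4a1, Ugt2a1 and Ugt2a2. The highest value any of these 9 reached in a library was 4.72 CPM (counts scaled to library size with TMM factors), for Gstp2.

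Glutathione S-transferases couple glutathione to electrophiles such as lipid aldehydes and epoxides. UDP-glucuronosyltransferases transfer glucuronic acid from UDP-glucuronate to bilirubin, steroids and drugs, and sulfotransferases transfer sulfate from the donor PAPS to steroids, bile acids, phenols and amines. Hepatocytes are a main site of these reactions, and in mouse liver several of the genes are known to differ between the sexes, with Sult2a1 and Sult3a1 predominant in females and Gstp1 in males.

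The libraries were made from total RNA of C57BL/6JN mouse liver after removal of ribosomal RNA. Young animals of 4 months and old animals of 18 months were sampled before and at the time labels 48, 72, 96, 120 and 240 of regeneration, which gave 12 groups of 3 libraries, 36 in all. The labels used here state no unit for the time points, no means by which regeneration was induced, no sex, and no allele or agent. The submitters describe the libraries of a group as biological replicates and name old as the treated group, so young was the reference.

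Total counts ran from 2328233 to 6034446 per library, and a count of 3, taken as the smallest readable value, was worth 0.49 to 1.29 CPM. The 6 hepatocyte markers were abundant in every library, at a summed 16863 to 29994 CPM. A summed level of 4 genes on the Y chromosome (Uty, Kdm5d, Ddx3y and Eif2s3y) was 177 to 321 CPM in 12 libraries, 1 of every group, and in the other 24 it was at most 0.212 CPM. Several members followed this split, as described below, so results were also computed with the presence of Y-linked transcripts as a term and without those 12 libraries. Markers of pancreas and gut epithelium summed to 71.1 CPM in young replicate 1 at 96 and to 122 CPM in old replicate 3 at 120, against at most 48.7 CPM in any other library.

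The start regions of 3 genes are shown because changes in the levels of these genes are described below. None of the windows overlaps an annotated exon of the 56 genes. Gsta3 is an alpha-class transferase known to conjugate the epoxide of aflatoxin in mice, Ugt2a3 is a hepatic UDP-glucuronosyltransferase, and Ugt1a5 is made from one of the alternative first exons of the Ugt1a locus. Each window is the 250 bases before the RefSeq start (GRCm38.p6), written 5′ to 3′ on the strand of the gene. The window of Gsta3 is chr1:21240335-21240584 on the + strand, that of Ugt2a3 chr5:87337196-87337445 on the - strand and that of Ugt1a5 chr1:88165762-88166011 on the + strand. Capitals mark a match to the antioxidant response element core, TGACNNNGC, which was found in the window of Gsta3 and in neither of the others.
Gsta3: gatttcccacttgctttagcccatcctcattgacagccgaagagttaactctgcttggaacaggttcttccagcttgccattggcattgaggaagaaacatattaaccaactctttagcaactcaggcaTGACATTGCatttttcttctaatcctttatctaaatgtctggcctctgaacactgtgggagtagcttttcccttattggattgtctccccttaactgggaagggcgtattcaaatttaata
Ugt2a3: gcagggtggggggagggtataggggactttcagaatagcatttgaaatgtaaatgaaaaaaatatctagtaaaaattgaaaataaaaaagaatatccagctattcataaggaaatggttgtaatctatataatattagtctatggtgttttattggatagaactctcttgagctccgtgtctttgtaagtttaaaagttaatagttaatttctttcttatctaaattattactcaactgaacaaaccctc
Ugt1a5: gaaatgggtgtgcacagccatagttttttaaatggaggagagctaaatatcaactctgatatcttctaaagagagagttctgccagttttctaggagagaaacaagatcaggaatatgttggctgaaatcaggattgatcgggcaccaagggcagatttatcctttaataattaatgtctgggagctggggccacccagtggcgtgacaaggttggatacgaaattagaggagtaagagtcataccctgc

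RefSeq windows of this kind were matched to 49 of the 56 symbols, 59 windows in all, and to none of Gsta4, Gstt2, Sult2a1, Sult2a2, Sult2a7, Sult4a1 and Ugt1a6b. Motifs were searched on both strands. TGACNNNGC occurred in 3 of the 59 windows (5.08%), those of Gsta3, Gstm5 and Gstm7, against 10.2% of all 32851 windows of that length. In Gsta3 its first letter lay 121 bases before the start. The STAT palindrome TTCNNNGAA occurred in 4 windows (6.78%, against 7.02% of all), those of Gsta1, Gstm6, Sult3a1 and Ugt1a6a. The nuclear receptor half-site AGGTCA occurred in 11 windows (18.6%, against 14% of all), those of Gstk1, Sult1b1, Sult1e1, Sult2a8, Ugt1a7c, Ugt1a9, Ugt2b35, Ugt2b36, Ugt2b37, Ugt2b38 and Ugt2b5. The xenobiotic response element core TTGCGTG occurred in 1 window (1.69%, against 0.925% of all), that of Sult1d1. The C/EBP palindrome TTGCGCAA (0.164% of all windows) and the HNF1 palindrome (0.00913% of all windows) were not among the letters of these 59 windows. These are matches of letters only.

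The members lie in clusters. On GRCm38 (GENCODE M21 annotation) the 7 Gstm genes are on chromosome 3, the 8 Ugt1a genes on chromosome 1, the 3 Ugt2a and 7 Ugt2b genes on chromosome 5 and the 9 Sult2 genes on chromosome 7. The Ugt1a genes share their last exons and differ in the first, and between 52.1% and 79.8% of their exonic 50-base words also occurred in other genes. The share was 90.5% for Gsta1, 62.1% for Sult2a2, 33.7% for Gstp1 and 33.2% for Sult2a1. Counts of these genes depend on how reads matching more than 1 gene were treated, which is not given in the sources used here. The share was low for Gsta3 (0.273%), Sult2a8 (1.72%) and Ugt2a3 (4.55%), so their counts rest mainly on sequence of their own.

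Levels can be compared between genes only per length. Over all 36 libraries the highest mean level per kilobase of annotated exon was that of Sult1a1, the phenol sulfotransferase, at 504 CPM. Gstm1, a mu-class glutathione S-transferase, had 385 CPM per kilobase, and Ugt1a1, which conjugates bilirubin, had 359.9 CPM per kilobase with the shared exons included. The next were Ugt2b34 at 217, Ugt2b5 at 210.2, Ugt2a3 at 172 and Ugt2b1 at 156 CPM per kilobase, all of them conjugators of steroids, drugs or other lipophilic compounds. The lowest level per kilobase among the tested genes was that of Sult5a1, at 0.599 CPM.

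The 56 genes together made up 8429 ± 704 CPM in young liver before (mean ± SD, n = 3, here and below) and 7413 ± 900.5 CPM in old liver before. At 48 the sum was 5741 ± 403 CPM in young and 3234 ± 1149 CPM in old liver, and at 240 it was 7869 ± 554 and 8131 ± 1149 CPM. The families did not share one course. The Ugt1a sum was 1670 ± 213 CPM before and 816 ± 205 at 48 in young liver, and 1633 ± 546 and 755 ± 155 CPM in old liver. The Sult2 sum was 549 ± 78.5 CPM before and 96.7 ± 60.1 at 48 in young liver, and 318 ± 47.5 and 41.2 ± 41.0 CPM in old liver. The Sult1 sum, most of it Sult1a1, had no lower mean at 48 than before, at 689.5 ± 169 and 1025 ± 23.7 CPM in young liver and 788 ± 214 and 913 ± 392 CPM in old liver.

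**Figure D1:**
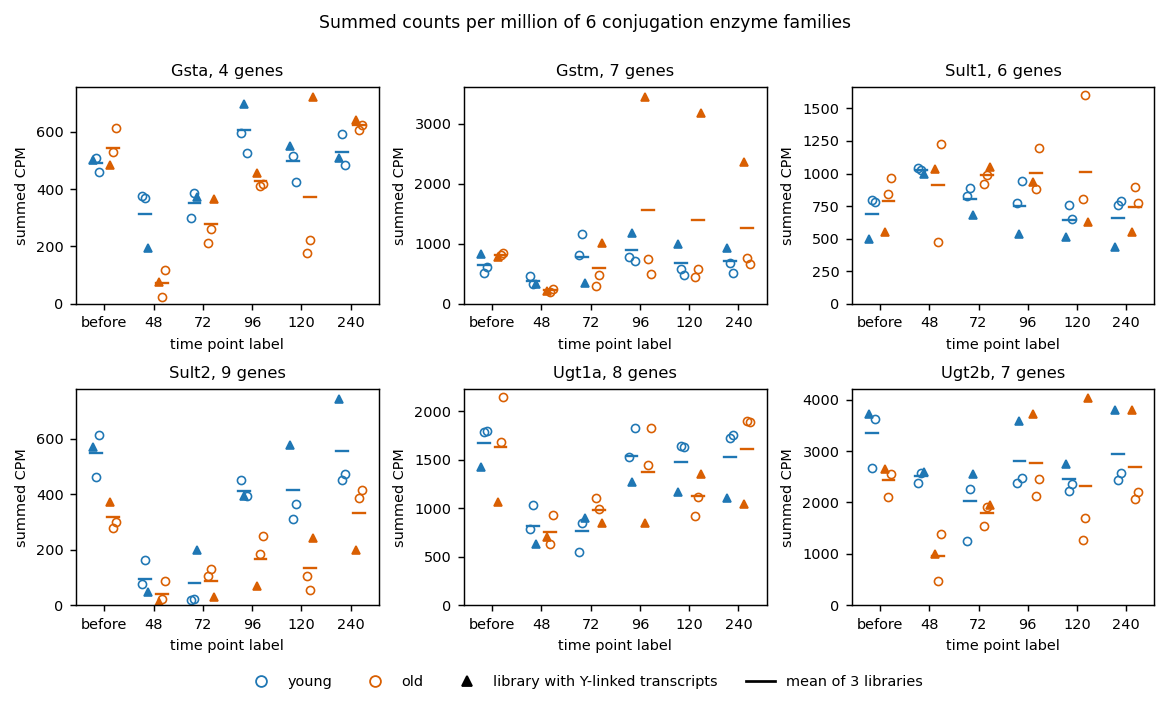
Summed CPM (vertical axes, linear) of 6 families by time label (horizontal axes), with blue for young, orange for old, a point for each library, triangles for libraries with Y-linked transcripts and a line through the means of 3. The Gsta sums of the 3 old libraries at 48, 75.8, 23.9 and 118 CPM, lie below those of every other library, and the Gstm sum of a single old library reaches 3444, 3179 and 2362 CPM at 96, 120 and 240.

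The first comparison asked how these genes changed in young liver from before. At 48, 9 of the 47 tested genes fell and 0 rose, where 22.1% of all tested genes were called, 12.2% higher and 9.88% lower. The median log2 fold change over the 47 was -0.67, against -0.01 over all tested genes. Here and below, calls are at a Benjamini-Hochberg adjusted p under 0.05 over all genes tested (edgeR quasi-likelihood test unless another is named). Each group held 3 libraries. Fits without the 12 libraries with Y-linked transcripts had 1 library fewer in each group. The average over time labels and the test of all changes together used all 36 libraries. In bulk tissue, fewer cells of a type and less RNA per cell cannot be told apart. The 9 were Gstm6, Sult1b1, Sult1c2, Sult2a8, Ugt1a2, Ugt1a5, Ugt1a7c, Ugt2a3 and Ugt2b38, of which 5 are UDP-glucuronosyltransferases, 3 are sulfotransferases and 1 is a glutathione S-transferase.

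Ugt1a5 (chr1:88166012-88218997, + strand) stood at 198, 289 and 293 CPM in the 3 young libraries before and at 45.8, 62.1 and 35.7 CPM at 48. The groups were far apart, and the log2 fold change was -2.44 ± 0.47 (value ± SE, adjusted p = 0.000321, edgeR). Sult2a8 (chr7:14410686-14446769, - strand), a sulfotransferase of bile acids, stood at 570, 451 and 602 CPM before and 62.4, 148 and 47.3 CPM at 48. Its groups did not overlap and it fell by 2.66 ± 0.87 on the log2 scale (edgeR adjusted p = 0.0272). Ugt2b38, a low gene, read 13.9, 3.48 and 5.57 CPM before and 0.490, 0.259 and 1.23 CPM at 48, without overlap (counts of 3, 1 and 5 at 48, model log2 value -3.52 ± 0.96, adjusted p = 0.00827).

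Ugt2a3 (chr5:87324972-87337195, - strand) read 559, 554 and 798 CPM before and 296, 361 and 214 CPM at 48, again without overlap (log2 fold change -1.13 ± 0.33, edgeR adjusted p = 0.014). Ugt1a7c, from another first exon of the Ugt1a locus, had a log2 fold change of -1.73 ± 0.51 (adjusted p = 0.0153), and the other 4 genes called had values from -1.51 to -1.05. Gsta3 did not pass the test in young liver (log2 fold change -0.65 ± 0.39, adjusted p = 0.253), although its 356, 358 and 186 CPM at 48 lay below its 481, 489 and 442 CPM before. The count of 9 was 3 without young replicate 1 before and 3 and 3 without young replicates 1 and 3 at 48. In a fit of only the groups compared it was 22, where 26.5% of all tested genes were called. Of the genes given with a test, Ugt1a5 kept its call in all 15 alternatives. Sult2a8 lost it without replicate 1 or 3 before or replicate 1 or 3 at 48 (adjusted p 0.0545 to 0.125), Ugt2b38 without replicate 1 before or replicate 1 at 48 (adjusted p 0.0505 to 0.0693), Ugt1a7c without replicate 1 before or replicate 1 or 3 at 48 (adjusted p 0.0563 to 0.0734) and Ugt2a3 without the 12 libraries with Y-linked transcripts or without replicate 3 before or replicate 3 at 48 (adjusted p 0.0714 to 0.162). The other 4 genes called each lost it in 3 to 10 of 15 alternatives.

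At 72, 8 members fell and 0 rose in young liver, where 17.5% of all tested genes were called, 9.26% higher and 8.23% lower, with a median of -0.58 over the 47. This comparison uses the same libraries before as that at 48, so the values are only set side by side. Sult1b1, which sulfates thyroid hormones and phenols, stood at 11.4, 13.9 and 24.5 CPM before and 3.44, 2.67 and 4.58 CPM at 72, without overlap (log2 fold change -2.21 ± 0.40, edgeR adjusted p = 0.000495). Ugt1a5 stood at 41.3, 50.8 and 51.9 CPM, below all libraries before (log2 fold change -2.44 ± 0.47, adjusted p = 0.00089). The bilirubin enzyme Ugt1a1 read 845, 1125 and 1179 CPM before and 284, 430.4 and 561 CPM at 72, without overlap (log2 fold change -1.30 ± 0.36, adjusted p = 0.014). Ugt2a3 and Ugt2b5 fell too, by 1.39 and 1.08 on the log2 scale, and Ugt2b38 was called lower at counts of 2, 1 and 4 in the 3 libraries at 72. Sult1b1, Ugt1a5 and Ugt2a3 kept their calls in all 15 alternatives. Ugt1a1 lost its call without replicate 3 before or replicate 1 or 2 at 72 (adjusted p 0.0506 to 0.0931), Ugt2b38 without replicate 1 before or replicate 1 or 2 at 72 (adjusted p 0.0525 to 0.0675) and Ugt2b5 without replicate 3 before or replicate 1 at 72 (adjusted p 0.0787 to 0.111).

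Sulfotransferases made up the rest of the calls at 72. Sult2a8 read 14.2, 18.7 and 198 CPM, and the high library, replicate 3, is the one with Y-linked transcripts. The gene was called (log2 fold change -2.82 ± 0.88, edgeR adjusted p = 0.026), and without the 12 libraries with Y-linked transcripts the value was -4.99 (adjusted p = 0.00118). The call was lost in a fit of only the groups compared or without replicate 1 or 3 before or replicate 1 or 2 at 72 (adjusted p 0.0545 to 0.122). The 3 young libraries at 72 also differed in cholangiocyte markers, which summed to 125, 287 and 41.0 CPM. Their stellate cell markers summed to 515, 540 and 286 CPM. The part of these cell types in the values was not tested. Sult3a1, which sulfates amines, read 0, 27.8 and 32.2 CPM before, and the library at 0 is the one with Y-linked transcripts. At 72 it read 0.191, 0.243 and 0 CPM, at most 1 count in a library, and was called lower (adjusted p = 0.0236), a call lost without replicate 2 or 3 before or any 1 of the 3 libraries at 72 (adjusted p 0.0539 to 0.0918). The count of 8 was 3 without young replicate 1 at 72, 15 with Y-linked transcripts as a term, where 19.7% of all tested genes were called, and 14 without those 12 libraries, where 15% were.

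Few changes were seen in young liver from 96 on. The edgeR test and DESeq2 both called 0 members at 96, 120 and 240, and the members with an unadjusted edgeR p under 0.05 numbered 4, 2 and 0. Over all tested genes 1.44%, 0.595% and 0.26% were called. Ugt1a5 was at 175 ± 72.4 CPM at 96, 178 ± 57.8 CPM at 120 and 166 ± 97.4 CPM at 240, against 260.2 ± 53.7 CPM before.

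Old liver was compared with old liver before in the same way. At 48, 28 members fell and 1 rose, 29 of the 47 tested, where 24.3% of all tested genes were called, 12.3% higher and 12.1% lower. The median log2 fold change over the 47 was -1.71, against 0.01 over all tested genes. Those called were 10 of 17 tested glutathione S-transferases, 10 of 16 UDP-glucuronosyltransferases and 9 of 14 sulfotransferases. When only the 6 libraries of this comparison were fitted, 4 members were called in place of 29, and 1.83% of all tested genes. The gene that rose was Sult1e1, the estrogen sulfotransferase.

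Among the alpha-class transferases, Gsta3 (chr1:21240589-21265661, + strand) read 469, 502 and 578 CPM in old liver before and 73.1, 18.2 and 114 CPM at 48. The groups lay far apart, with a log2 fold change of -2.92 ± 0.42 (edgeR adjusted p = 3.54e-05). Gsta4, which conjugates the lipid aldehyde 4-hydroxynonenal, read 13.6, 23.9 and 29.0 CPM before and 2.44, 3.85 and 4.70 CPM at 48, without overlap (log2 fold change -2.58 ± 0.66, adjusted p = 0.00573). Gsta2 read 1.64, 2.23 and 6.16 CPM before and 0.222, 0.203 and 0 CPM at 48, at most 1 count in a library, and was called lower (adjusted p = 0.0197), a call lost without replicate 3 before or replicate 2 or 3 at 48 (adjusted p 0.0559 to 0.115). Gsta4 kept its call in all 15 alternatives and Gsta3 in all but the fit of only the groups compared (adjusted p = 0.0567).

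The mu-class transferase Gstm1 (chr3:108012255-108017973, - strand) read 541, 612 and 654 CPM before and 110.3, 129 and 134 CPM at 48, without overlap (log2 fold change -2.28 ± 0.65, edgeR adjusted p = 0.0116). Gstm6 and Gstm7 fell as well. Both Gstt1 and Gstt3 of the theta class fell, by 1.74 and 1.77 on the log2 scale (adjusted p = 0.000277 and 0.00142). The smallest falls among the transferases called were those of Gstk1, the kappa-class enzyme of mitochondria and peroxisomes, and Gsto1, an omega-class enzyme that reduces dehydroascorbate, by 0.80 and 0.75. Gstm1 kept its call in all 15 alternatives, and Gstm6, Gstt1 and Gstt3 in all but the fit of only the groups compared. Gstm7 lost it in a fit of only the groups compared or without replicate 2 at 48 (adjusted p 0.0791 to 0.201), Gstk1 without the 12 libraries with Y-linked transcripts, in a fit of only the groups compared or without replicate 3 before or replicate 2 at 48 (adjusted p 0.0681 to 0.14) and Gsto1 with no filter on low counts, without the 12 libraries with Y-linked transcripts, in a fit of only the groups compared or without replicate 2 or 3 before or replicate 1 or 3 at 48 (adjusted p 0.0735 to 0.148).

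Of the glucuronosyltransferases, Ugt2a3 read 449.9, 477 and 540.3 CPM before and 83.6, 35.6 and 162 CPM at 48, without overlap (log2 fold change -2.38 ± 0.35, edgeR adjusted p = 3.54e-05). Ugt2b1 read 664, 220.5 and 306 CPM before and 47.1, 12.8 and 126 CPM at 48, without overlap (log2 fold change -2.68 ± 0.68, adjusted p = 0.00523). Ugt1a5 read 231, 457 and 596 CPM before and 43.6, 117 and 58.3 CPM at 48, also without overlap (log2 fold change -2.55 ± 0.47, adjusted p = 0.00035). The other 7 called, Ugt1a2, Ugt1a6a, Ugt1a6b, Ugt1a9, Ugt2b34, Ugt2b36 and Ugt2b5, fell by 0.97 to 1.82 on the log2 scale. Ugt1a1 (-0.65 ± 0.36, adjusted p = 0.186) and Ugt2b35 (-0.87 ± 0.53, adjusted p = 0.236) did not pass the test. Of the 10 called, Ugt1a5, Ugt1a6a, Ugt1a9, Ugt2a3, Ugt2b1 and Ugt2b36 lost their call only in the fit of the groups compared (adjusted p 0.0516 to 0.185). Ugt1a2 lost it in a fit of only the groups compared or without replicate 2 or 3 before or replicate 1 or 2 at 48 (adjusted p 0.0651 to 0.191), Ugt1a6b with no filter on low counts, without the 12 libraries with Y-linked transcripts, in a fit of only the groups compared or without any 1 of the 3 libraries before or replicate 2 at 48 (adjusted p 0.0563 to 0.303), Ugt2b34 in a fit of only the groups compared or without replicate 3 before (adjusted p 0.0501 to 0.205) and Ugt2b5 in a fit of only the groups compared or without replicate 2 or 3 before or replicate 2 at 48 (adjusted p 0.0524 to 0.096).

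The sulfotransferases held large falls beside the single gain. Sult1c2 read 5.87, 10.95 and 14.6 CPM before and 0.445, 0 and 1.23 CPM at 48, without overlap (counts of 2, 0 and 6 at 48, model log2 value -4.16 ± 0.67, edgeR adjusted p = 0.000105). Sult2a3 read 0.235, 56.7 and 57.7 CPM before and 0, 0.203 and 1.43 CPM at 48 (adjusted p = 0.00559), and the low library before is the one with Y-linked transcripts. Both calls held in every alternative that gave a value. Sult1b1, Sult1d1, which sulfates catecholamines, Sult2a4, Sult2a5, Sult2a7 and Sult2a8 were also called lower. Sult2a4 had counts of 0, 36 and 23 before and 0, 4 and 0 at 48. It passed the filter through 4 libraries, replicates 2 and 3 before among them, so its call is given no weight. Sult2a5 had counts of 0, 25 and 49 before and 0, 0 and 3 at 48. In both groups replicate 1, at 0 for both genes, is the library with Y-linked transcripts. Sult1b1 lost its call in a fit of only the groups compared (adjusted p = 0.0572), Sult1d1 in a fit of only the groups compared or without replicate 2 or 3 before or replicate 1 at 48 (adjusted p 0.062 to 0.211), Sult2a4 with no filter on low counts, by DESeq2 or without replicate 2 or 3 before or replicate 1 or 3 at 48 (adjusted p 0.0536 to 0.171) and Sult2a5 by DESeq2 or without replicate 3 before or replicate 1 or 2 at 48 (adjusted p 0.0672 to 0.125). Sult2a7 lost it with no filter on low counts or without replicate 2 or 3 before or any 1 of the 3 libraries at 48 (adjusted p 0.0537 to 0.232) and Sult2a8 without the 12 libraries with Y-linked transcripts, in a fit of only the groups compared or without replicate 1 before or replicate 1 or 2 at 48 (adjusted p 0.0567 to 0.0972). Sult1e1 (chr5:87575969-87591594, - strand) read 0, 1.12 and 0.228 CPM before and 1.78, 34.4 and 1.43 CPM at 48 (adjusted p = 0.0235). Replicate 2 at 48 held most of that signal, and without it the adjusted p was 0.498. The call was lost by DESeq2 or without replicate 1 or 3 before or replicate 2 at 48 (adjusted p 0.0544 to 0.498).

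That library, old replicate 2 at 48, also held the lowest of the 3 values of Gsta3, Ugt2a3, Ugt2b1, Ugt2b34, Ugt2b35 and Ugt2b36. Its cholangiocyte markers summed to 216 CPM, against 68.2 and 56.7 in the others, and its Kupffer cell and monocyte markers to 77.6 CPM, against 324 and 579. Its hepatocyte markers summed to 25706 CPM, against 22461 and 23568. The part of these cell types in the results was not tested. Without that library 19 members were called in old liver at 48, and without old replicate 3 before 17 were.

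**Figure D2:**
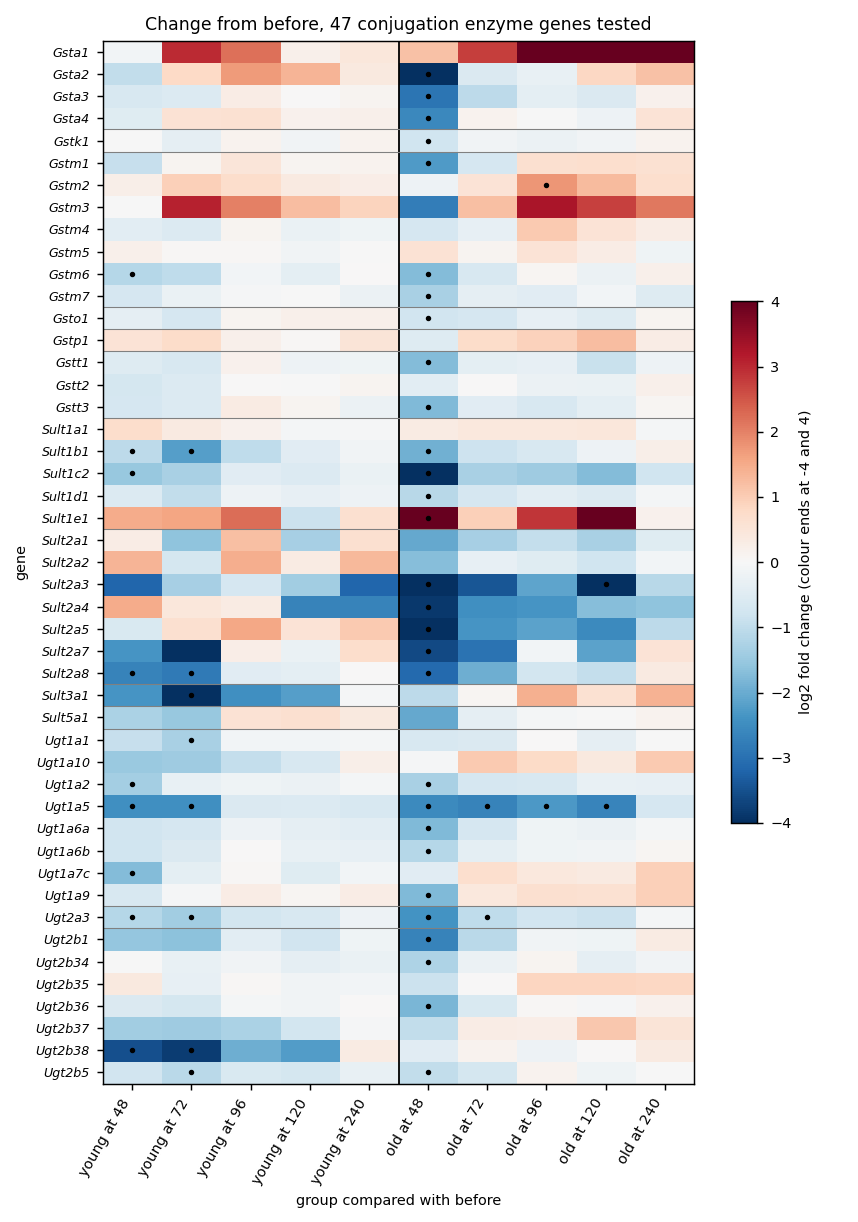
Log2 fold change from before (colour, ending at -4 and 4) of the 47 tested genes (vertical axis) at 5 time labels in young and in old liver (horizontal axis), with a dot for an adjusted p under 0.05. Old liver at 48 has 29 dots, young liver has 9 at 48 and 8 at 72, and Ugt1a5 is the gene with a dot in old liver at each of 48, 72, 96 and 120.

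After 48 few members were called in old liver. At 72 Ugt1a5 and Ugt2a3 were called lower (12.6% of all tested genes were called, 6.71% higher and 5.92% lower), at 96 Ugt1a5 was lower and Gstm2 higher (6.85% of all tested genes were called, 3.77% higher and 3.08% lower), and at 120 Sult2a3 and Ugt1a5 were lower (4.05% of all tested genes were called, 1.96% higher and 2.08% lower). At 240 edgeR and DESeq2 called 0 members (0.141% of all tested genes), with 2 at an unadjusted edgeR p under 0.05. Ugt2a3 at 72 read 182, 308 and 236 CPM, below all libraries before (log2 fold change -1.02 ± 0.33, adjusted p = 0.0426). That call was lost with total-count scaling, with no filter on low counts, without the 12 libraries with Y-linked transcripts or without any 1 of the 3 libraries before or replicate 1 or 3 at 72 (adjusted p 0.0599 to 0.168).

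Gstm2 at 96 read 129, 39.5 and 22.2 CPM against 12.9, 24.6 and 17.1 CPM before, with overlap (log2 fold change 1.78 ± 0.51, edgeR adjusted p = 0.0335). Without replicate 1 at 96 the value was 0.77 (adjusted p = 0.454). The call was lost without the 12 libraries with Y-linked transcripts, in a fit of only the groups compared or without any 1 of the 3 libraries before or replicate 1 at 96 (adjusted p 0.0587 to 0.465). Sult2a3 at 120 read 2.32, 0.607 and 0.205 CPM (adjusted p = 0.0398). Its call was lost by DESeq2, with a replicate block, in a fit of only the groups compared or without replicate 2 or 3 before or any 1 of the 3 libraries at 120 (adjusted p 0.0674 to 0.155).

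Ugt1a5 was called at more time labels than any other member in old liver. Its libraries read 54.4, 67.4 and 78.3 CPM at 72, 35.2, 120.1 and 104 CPM at 96, 47.7, 80.8 and 75.3 CPM at 120 and 151, 360.2 and 293 CPM at 240. Every old library from 48 to 120 was below the lowest old library before, 231 CPM. The log2 fold changes were -2.68 ± 0.47 at 72, -2.29 ± 0.46 at 96 and -2.65 ± 0.47 at 120 (edgeR adjusted p = 0.000529, 0.00338 and 0.0019). At 240 it was -0.68 ± 0.44 (adjusted p = 0.789). The calls at 72, 96 and 120 in old and at 48 and 72 in young liver held under every alternative run, libraries left out included. At 120 the young libraries read 111, 209 and 213 CPM, all above the old ones, but old against young at 120 did not pass the test (log2 value -1.38 ± 0.46, adjusted p = 0.293).

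The second comparison asked whether old and young liver differed at the same time label. Before, edgeR and DESeq2 called 0 members (0.0595% of all tested genes were called), with 9 at an unadjusted edgeR p under 0.05. At 48, 10 members were lower and 1 was higher in old liver, where 11.4% of all tested genes were called, 4.5% higher and 6.88% lower, and the median log2 value over the 47 was -0.74. The 11 were 3 glutathione S-transferases (Gsta3, Gstk1 and Gstt1), 6 UDP-glucuronosyltransferases (Ugt1a9, Ugt2a3, Ugt2b1, Ugt2b34, Ugt2b35 and Ugt2b36) and 2 sulfotransferases (Sult1b1 lower and Sult1e1 higher).

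Gsta3 read 73.1, 18.2 and 114 CPM in old and 356, 358 and 186 CPM in young liver at 48, without overlap, and was lower in old liver by a log2 value of -2.14 ± 0.41 (edgeR adjusted p = 0.00114). Ugt2b1 read 47.1, 12.8 and 126 CPM in old and 258, 292 and 235 CPM in young liver, without overlap (log2 value -2.08 ± 0.66, adjusted p = 0.0389). Ugt2b35 read 146, 114 and 178 CPM in old and 481, 481 and 517 CPM in young liver, again apart (log2 value -1.76 ± 0.54, adjusted p = 0.0331). These 3 had the lowest log2 values of the 11.

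Ugt2a3 was lower in old liver by a log2 value of -1.63 ± 0.34 and Ugt2b36 by -1.60 ± 0.45 (edgeR adjusted p = 0.00189 and 0.019). Ugt1a9, which conjugates phenols, read 15.8, 34.4 and 80.4 CPM in old and 128, 116 and 129.8 CPM in young liver, without overlap (log2 value -1.52 ± 0.40, adjusted p = 0.012). Ugt2b34 and the theta-class Gstt1 had log2 values of -1.34 ± 0.32 and -1.24 ± 0.31 (adjusted p = 0.00659 and 0.00863). For Sult1b1 (-1.37 ± 0.41, adjusted p = 0.0274) and Gstk1 (-0.89 ± 0.24, adjusted p = 0.0147) the libraries of the ages overlapped. Sult1e1, tested only through old libraries, read 1.78, 34.4 and 1.43 CPM in old and 0.654, 0 and 0.739 CPM in young liver, and its adjusted p went from 0.04 to 0.693 without old replicate 2.

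The count of 11 depended on single libraries. It was 5 without old replicate 2, 5 without young replicate 1, 5 without young replicate 2 and 7 without old replicate 1 at 48. Gsta3, Ugt2a3 and Ugt2b34 kept their call in each fit without 1 library, and the other 8 genes lost it in at least 1. Without the 12 libraries with Y-linked transcripts Ugt1a9, Ugt2b34 and Ugt2b36 lost it (adjusted p = 0.0622, 0.0783 and 0.0693). When the 6 libraries of this comparison were fitted alone, 0 members were called. Gsta3 then had a log2 value of -2.11 (edgeR adjusted p = 0.17). The shares of all tested genes called in the fits of this paragraph are not given. These counts are therefore not read as results about the members in particular.

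**Figure D3:**
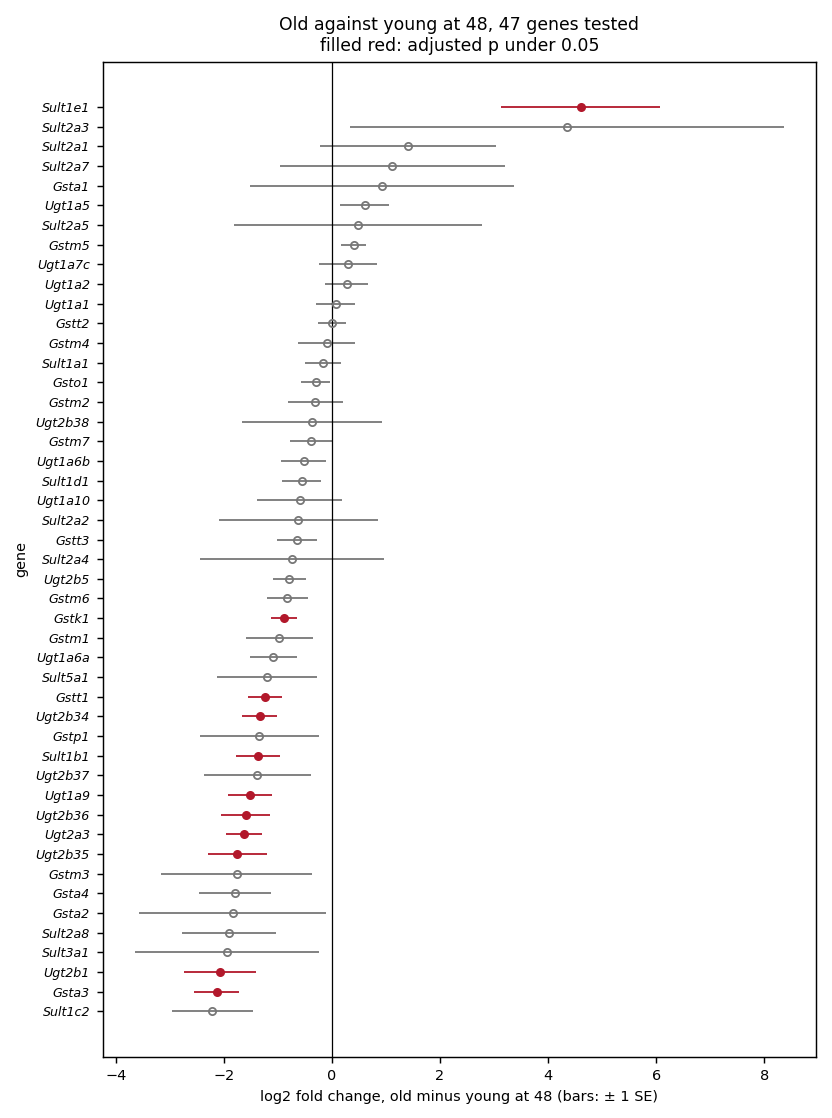
Log2 value of old against young liver at 48 (horizontal axis, bars of 1 SE) for the 47 tested genes (vertical axis), filled red where the adjusted p was under 0.05. Of the 11 filled points 10 lie left of 0, from -2.14 for Gsta3 to -0.89 for Gstk1, and Sult1e1 lies at 4.60.

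A further test asked if young and old liver had changed unequally. The test of all 5 changes together called 0 members (edgeR; 2.91% of all tested genes were called), with 8 at an unadjusted p under 0.05, and the adjusted p values of Gsta3 and Ugt1a5 were 0.093 and 0.0935. DESeq2 called these 2. When the change to 48 was tested alone, a test added after the data had been seen, Gsta3 passed: its change was lower in old than in young liver by a log2 value of -2.27 ± 0.56 (adjusted p = 0.0385), where 1.34% of all tested genes were called, 0.35% higher and 0.99% lower. For the changes to 72, 96, 120 and 240 edgeR called 0 members, with 4, 1, 1 and 0 at an unadjusted p under 0.05, and 0%, 0.0149%, 0.00744% and 0% of all tested genes were called. For Ugt2a3 the difference was -1.25 ± 0.47 (adjusted p = 0.159) and for Ugt1a9 -1.14 ± 0.55 (adjusted p = 0.304).

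At the other time labels edgeR and DESeq2 called 0 members between the ages. The members with an unadjusted edgeR p under 0.05 numbered 3 at 72, 6 at 96, 8 at 120 and 6 at 240, and 0%, 0.402%, 0.0819% and 0.0149% of all tested genes were called. Averaged over the 6 time labels, 7 members were called (6.13% of all tested genes were called, 3.45% higher and 2.69% lower). Sult2a1, Sult2a3 and Sult2a4 were higher and Gsta3, Sult2a8, Ugt2a3 and Ugt2b38 lower in old liver. The averages of Gsta3 (-0.52 ± 0.16, adjusted p = 0.0478) and Ugt2a3 (-0.55 ± 0.13, adjusted p = 0.0129) were small, and the call of Gsta3 was lost in 32 of its 44 alternatives. That of Ugt2a3 was lost without the 12 libraries with Y-linked transcripts (-0.52, adjusted p = 0.14). Of the 7, Sult2a3, Sult2a4 and Ugt2b38 had come to be tested through 1 age alone, so the count of 7 is not read against the 6.13%.

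The Sult2a genes, sulfotransferases of hydroxysteroids and bile acids, did not move in one direction with age. Sult2a8 read 570, 451 and 602 CPM in young and 369, 94.7 and 125 CPM in old liver before, and 421, 392 and 370.4 CPM against 71.7, 127 and 157 CPM at 96, without overlap at either time. At 120 and 240 every young library was also above every old one. The ages overlapped at 48 (62.4, 148 and 47.3 CPM in young, 13.3, 5.67 and 49.1 CPM in old liver). They overlapped at 72 too (14.2, 18.7 and 198 CPM in young, 51.9, 72.3 and 29.1 CPM in old liver). On the average of time labels Sult2a8 was lower in old liver by a log2 value of -1.47 ± 0.34 (edgeR adjusted p = 0.00878), a call held under all 44 alternatives. Ugt2b38 read 13.9, 3.48 and 5.57 CPM in young and 0.704, 0.894 and 0.456 CPM in old liver before, without overlap. Since it passed the filter only through young libraries, its call on the average is not used.

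Sult2a3 (chr7:14067446-14123044, - strand) was almost unread in young liver, where the highest of 18 libraries held 0.497 CPM. In old liver it read 0.235, 56.7 and 57.7 CPM before, 0, 7.44 and 18 CPM at 96 and 0, 43.6 and 11.04 CPM at 240, and in each of these groups the lowest library was the one with Y-linked transcripts, replicate 1. It passed the filter only through old libraries, so its call on the average is not used. Sult2a1 (chr7:13796246-13837409, - strand) read 0, 6.96 and 6.30 CPM in young and 0, 92.5 and 79.6 CPM in old liver before, and the library at 0 in each age was the one with Y-linked transcripts (model average 2.85 ± 0.70, edgeR adjusted p = 0.013, and 0.0575 by DESeq2). Sult2a4, also tested only through old libraries, reached 8.04 CPM in old and 0.817 CPM in young liver in its highest library.

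With the presence of Y-linked transcripts as a term, 6 members were called before, where 0.246% of all tested genes were, Sult2a1, Sult2a2, Sult2a3 and Sult2a5 higher and Sult3a1 and Ugt2b38 lower in old liver. Sult2a1 then had a log2 value of 3.67 (edgeR adjusted p = 9.75e-09) and Sult3a1 -3.14 (adjusted p = 0.00136). Leaving out the 12 libraries gave 6 members, where 0.327% of all tested genes were called, Sult2a1, Sult2a2, Sult2a3, Sult2a4 and Sult2a5 higher and Sult3a1 lower. On the average of time labels the term gave 15 members, where 7.84% of all tested genes were called, with Sult1e1, Sult2a1, Sult2a2, Sult2a3, Sult2a4, Sult2a5 and Sult2a7 higher and Gsta3, Sult2a8, Ugt1a10, Ugt2a3, Ugt2b1, Ugt2b37, Ugt2b38 and Ugt2b5 lower in old liver. These lists include members that passed the main filter through 1 age alone. They are Sult2a3, Sult2a5 and Ugt2b38 before with the term, and Sult2a3, Sult2a4 and Sult2a5 before without the 12 libraries. On the average they are Sult1e1, Sult2a3, Sult2a4, Sult2a5, Sult2a7 and Ugt2b38. Their calls are given no weight, so the counts of 6, 6 and 15 are not read against the shares beside them.

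**Figure D4:**
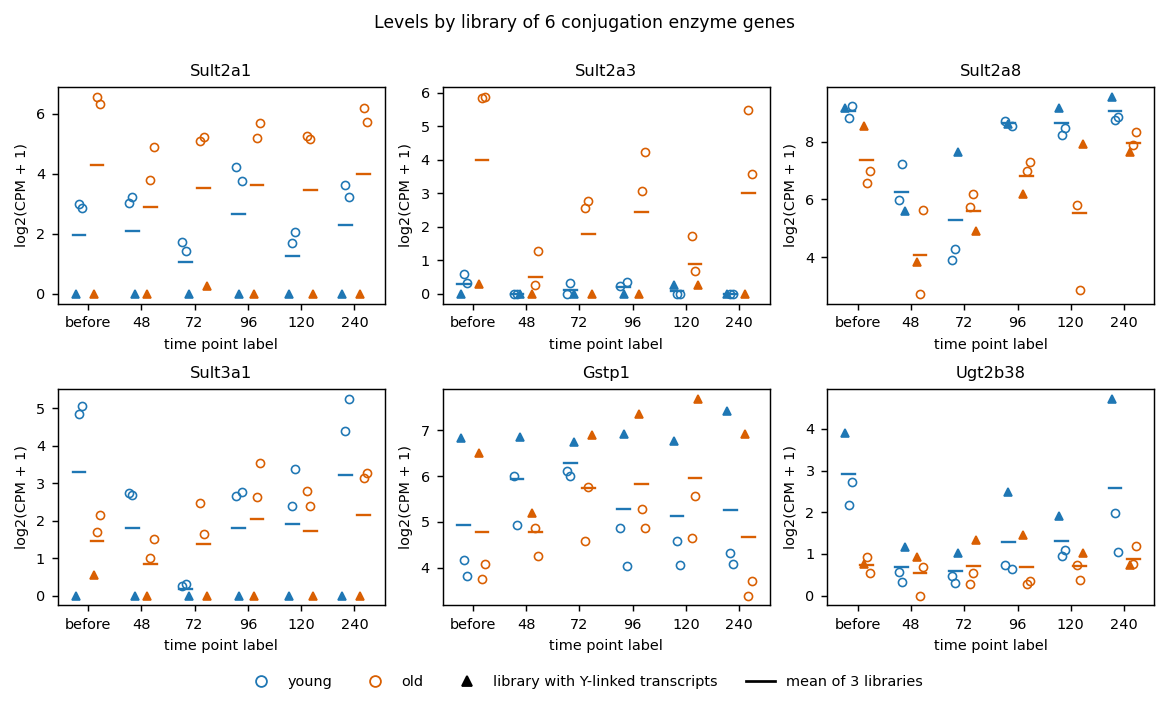
Level of 6 genes as log2(CPM + 1) (vertical axes) by time label (horizontal axes) in each library, with blue for young, orange for old and triangles for libraries with Y-linked transcripts. Triangles lie near 0 for Sult2a1 (at most 0.191 CPM) and Sult3a1 (at most 0.470 CPM) and highest in all 12 groups for Gstp1, and Sult2a3 stays within 0.497 CPM in every young library.

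The split by Y-linked transcripts is given as a description, since it is not in the labels. Sult2a1 stood at 0 to 0.191 CPM in the 12 libraries with and 1.70 to 92.5 CPM in the 24 without them, and Sult2a2 at 0 to 0.205 and 0.956 to 19.4 CPM. These were the 2 tested members without overlap, both lower in the 12, as were 0.067% of all tested genes. No tested member was higher in all 12 than in all 24, as were 0.119% of all tested genes. Sult3a1 was lowest in the library with Y-linked transcripts in 12 of 12 groups (0 to 0.470 against 0.191 to 37.2 CPM) and Ugt2b37 in 11 of 12. Sult1d1 and Sult2a5 were lowest in it in 10 of 12 groups each. The shares of all tested genes with such counts of groups are not given, so these counts are a description only.

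Gstp1 (chr19:4035407-4037985, - strand), the pi-class transferase, was highest in that library in 12 of 12 groups, at 35.8 to 204 against 9.53 to 68.3 CPM. Gstm3, Ugt2b1, Ugt2b35 and Ugt2b38 were highest in it in 10 of 12 groups each. For these counts of groups, too, the shares of all tested genes are not given. In young liver Gstp1 read 112, 16.9 and 13.1 CPM before and 68.3, 62.7 and 106 CPM at 72, which overlapped (log2 fold change 0.73 ± 1.07, edgeR adjusted p = 0.685). Without the 12 libraries it was called higher in young liver at 48 (1.67, adjusted p = 0.0157) and 72 (2.14, adjusted p = 0.00401) and in old liver at 72 (1.42, adjusted p = 0.0483). In these 3 fits 12.1%, 15% and 9.11% of all tested genes were called.

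The mu-class genes spread widely within several groups. At 72 Gstm3 read 10.1, 18.7 and 206 CPM in old liver, highest in the library with Y-linked transcripts. In young liver at 72 it read 119.5, 309 and 13.7 CPM, lowest in the library with Y-linked transcripts. Gstm1 was also lowest in that young library. Values of the later old groups follow. Gstm1 read 2013, 499.6 and 332 CPM in old liver at 96, 285, 402 and 2194 CPM at 120 and 1743, 545 and 473 CPM at 240, and the high library of each group was the one with Y-linked transcripts. Gstm3 (chr3:107963696-107969283, - strand) read 920.3, 614 and 356 CPM in those 3 libraries and 22.9 to 58.1 CPM in the other 6. Gsta1 read 14.2, 13.3 and 11.9 CPM in them and 0 to 1.02 CPM in the other 6, although most of its exonic words occur in other genes. Averaged over time labels, Gstm1 (0.23 ± 0.25, edgeR adjusted p = 0.677) and Gstm3 (0.87 ± 0.50, adjusted p = 0.343) did not pass the test between the ages.

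Of 17 listed targets of the transcription factor Nrf2 outside the Gst families, 12 were highest in the library with Y-linked transcripts in all 3 of these old groups (70.6%), as were 15 of the 47 tested members (31.9%) and 9.23% of all tested genes. This count was made after the pattern had been seen and is a description. The other 5 were highest there in 2 groups (Abcc4, Hmox1, Osgin1 and Slc7a11) or in 1 (Akr1b8). Slc7a11, the cystine transporter, read 3.44, 0.205 and 1.54 CPM in the 3 libraries and 0 to 1.22 CPM in the other 6, and Gclm, the modifier subunit of glutamate-cysteine ligase, 193, 143 and 152 and 99.6 to 140.4 CPM. The 3 targets with values next were singled out after their values had been seen. Nqo1, a quinone reductase, read 143, 74.7 and 66.2 CPM in the 3 and 21.9 to 49.6 CPM in the other 6 libraries of those groups. Srxn1, sulfiredoxin, read 1182, 578 and 432 against 80.5 to 154 CPM, and Gclc, a subunit of the enzyme for the first step of glutathione synthesis, 930.1, 711 and 401 against 171 to 298 CPM. The old library at 120 is the one with 122 CPM of pancreas and gut markers, and those at 96 and 240 had 32.2 and 14.3 CPM. The part of these markers in the values was not tested.

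**Figure D5:**
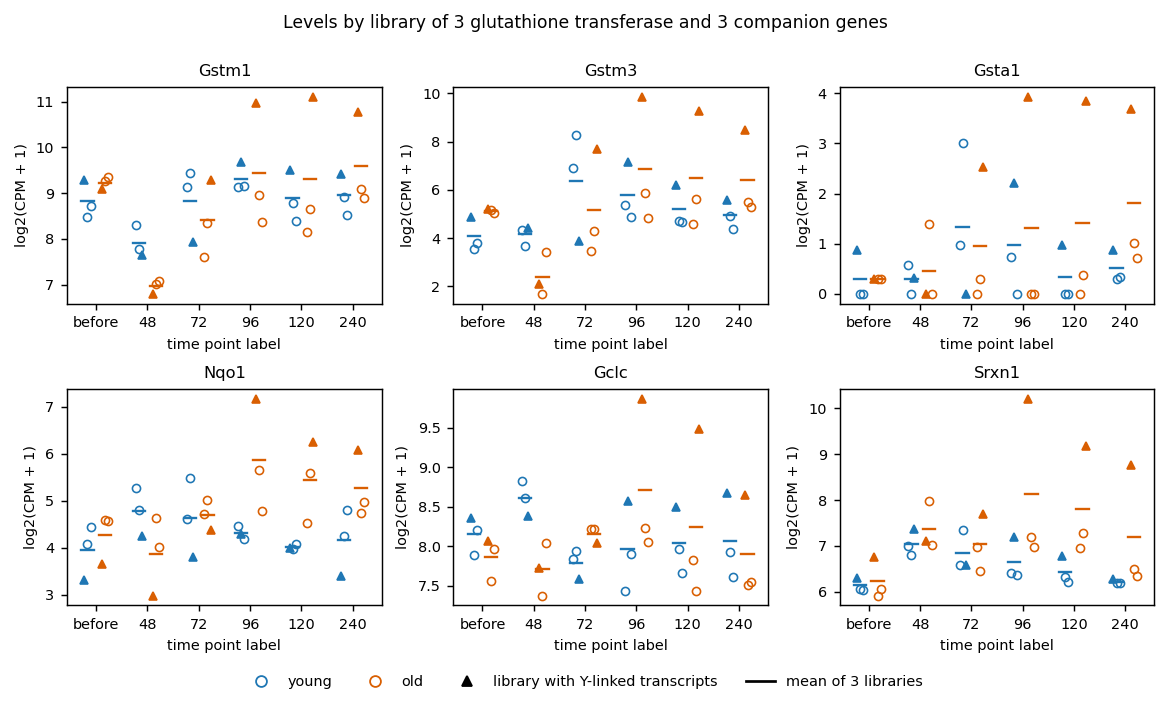
Level of Gstm1, Gstm3, Gsta1, Nqo1, Gclc and Srxn1 as log2(CPM + 1) (vertical axes) by time label (horizontal axes) in each library, with blue for young, orange for old and triangles for libraries with Y-linked transcripts. At 96, 120 and 240 the old library with Y-linked transcripts is the highest of its old group for all 6 genes, for Gstm1 at 2013, 2194 and 1743 CPM.

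Genes that supply, regulate or follow conjugation were counted from lists by function. Over all tested genes, 12.2% rose and 9.88% fell in young liver at 48 and 12.3% rose and 12.1% fell in old liver, with medians of -0.01 and 0.01 (log2 fold change), and the counts below are read against these shares. Of 12 genes for the supply of UDP-glucuronate and PAPS, 1 fell and 0 rose in young liver at 48, and 2 fell and 0 rose in old liver, both near the share over all tested genes. The median log2 fold change of the list was 0.04 in young and -0.25 in old liver. Ugp2, which makes UDP-glucose, read 181, 195 and 222 CPM before and 95.4, 108 and 75.2 CPM at 48 in young liver, without overlap (log2 fold change -1.10 ± 0.27, edgeR adjusted p = 0.0034). Papss2, a PAPS synthase, read 257, 541 and 835 CPM before and 72.2, 144 and 173 CPM at 48 in old liver, without overlap (log2 fold change -2.07 ± 0.37, adjusted p = 0.000304).

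Of 14 uptake and efflux transporters, 2 fell in young and 7 fell in old liver at 48, and none rose. The 2 of 14 in young liver are near the 9.88% of all tested genes, and the 7 of 14 in old liver are above the 12.1%. The median log2 fold change of the list was -0.45 in young and -1.08 in old liver. Abcc2, the canalicular pump for conjugates, fell in young liver by 1.11 ± 0.25 on the log2 scale (edgeR adjusted p = 0.00154). Abcc4, a sinusoidal efflux pump, read 7.28, 32.2 and 33.5 CPM before and 2.67, 8.10 and 6.14 CPM at 48 in old liver (log2 fold change -2.10 ± 0.45, adjusted p = 0.00143). Averaged over time labels Abcc4 was higher in old than in young liver (0.85 ± 0.19, adjusted p = 0.00589).

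Of 21 other conjugation enzymes tested, 2 rose and 1 fell in young liver at 48, and 2 rose and 6 fell in old liver. In young liver these are near or under the shares over all tested genes (12.2% and 9.88%), and in old liver the 6 that fell are above 12.1%. The median log2 fold change of the list was -0.05 in young and -0.40 in old liver. Gstcd, named for its glutathione S-transferase-like domain, rose in young liver (1.92 ± 0.28, edgeR adjusted p = 1.33e-05). Hnmt, which methylates histamine, read 49.3, 30.2 and 46.1 CPM before and 6.89, 2.23 and 9.20 CPM at 48 in old liver, without overlap (-2.77 ± 0.40, adjusted p = 3.39e-05). Inmt, an indole N-methyltransferase, was lower in old liver on the average of time labels (-1.90 ± 0.33, adjusted p = 0.000612).

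The remaining lists are read against the 22.1% and 24.3% of all tested genes called in young and old liver at 48. Of all tested genes, 9.88% and 12.1% were called lower. Of 14 genes of glutathione supply, 1 rose and 0 fell in young liver at 48, and 2 rose and 3 fell in old liver. Of 20 receptors and regulators, 4 fell and 0 rose in young liver, with the small Maf gene Maff at -2.11 ± 0.40 (edgeR adjusted p = 0.000276), and 3 fell and 1, Mafk, rose in old liver (0.71 ± 0.19, adjusted p = 0.00805). Of 17 Nrf2 targets outside the Gst families, 2 rose and 1 fell in young liver, with Osgin1 at 2.38 ± 0.43 (adjusted p = 0.000152), and 1 rose and 3 fell in old liver. Of 7 deconjugation genes tested, Arsb, a lysosomal sulfatase, rose in young liver (0.63 ± 0.23, adjusted p = 0.0436) and Acy3, an aminoacylase, fell in old liver (-0.88 ± 0.29, adjusted p = 0.0283). The called shares of these 4 lists ran from 1 of 14 to 4 of 20 in young and from 1 of 7 to 5 of 14 in old liver. The 5 of 14 are above the 24.3% of all tested genes. The share that fell was above that of all tested genes for receptors and regulators in young liver. In old liver it was above for each of the 4 lists, at counts of 1 to 3 genes. Their median log2 fold changes ran from -0.41 to 0.24 in young and from -0.20 to 0.18 in old liver.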

How the data were processed

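The values deposited by the authors are whole-number counts per gene for each library. The submitters' processing notes name, without order or role, featureCounts, bcl2fastq 2.20.0, Trimmomatic 0.39, FastQC 0.11.9, STAR 2.7.5b, SAMtools 1.10, Picard 2.20.8, deepTools 3.5.0 and the builds GRCm38 and mm10. The annotation, the strand setting and the treatment of reads matching several genes are not given in the sources used here.

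Genes with low counts were removed by filterByExpr, and the counts were scaled by TMM and fitted over all 36 libraries in 1 model with a mean per group (edgeR 4.0.16, R 4.3.3, quasi-likelihood test). The common biological coefficient of variation was 24.7%. Calls are at a Benjamini-Hochberg adjusted p under 0.05 over all 13436 genes tested, and SE is the log2 fold change divided by the square root of F. Levels are TMM-scaled CPM. The model script was tested on simulated counts. DESeq2 1.42.0, other scalings and filters, a replicate block, Y-linked transcripts as a term, fits of the compared groups alone and fits without each library were the alternatives. The p-values of the main fit set a difference against a spread between libraries that was estimated over all 36 of them.

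The members and lists, and the markers, were chosen with earlier results of these data known. Genes named with values were the 2 most abundant tested members of each family, every member called between the ages, the 4 largest falls and rises called at each time, members without overlap in the Y-linked split, and the called gene with the smallest p in each list, and a few more were named after their values had been seen (Ugt1a1, Ugt1a5 at 120, Sult1b1 at 72 and those in the paragraphs on libraries). Coordinates and exon sequence come from GENCODE M21 (all 56 symbols matched) and promoter windows from RefSeq on GRCm38.p6.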

Additional observations from a re-analysis of the deposited data

Results flagged for a closer look

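The fall of Gsta3 from before to 48 differed between the ages when that change was tested by itself. The change was lower in old than in young liver by a log2 value of -2.27 (SE 0.56, edgeR adjusted p = 0.0385). That test was added after the data had been seen and was not repeated under the alternatives. The planned edgeR test of all changes together did not call Gsta3. Every old library at 48 (73.1, 18.2 and 114 CPM) was below every young one (356, 358 and 186 CPM), while before the old libraries read 469, 502 and 578 and the young ones 481, 489 and 442 CPM.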

How the results depend on the processing

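Of 751 values of named genes under alternatives, 597 kept their call, 154 lost it and 0 changed sign. Of 165 counts of called members under alternatives other than leaving out a library, 125 were within 1.5 times the reported count. Counts of 0 that stayed at 0 are among the 125. So are tests of a single change that called 0 members, set against the interaction. The others follow, and the cause of the differences was not tested. Where no share of all tested genes stands beside a count, the count is not read as a result about the members. This also holds for the fits that leave out 1 library. With Y-linked transcripts as a term the counts between the ages were 6 before, 2 at 72, 2 at 96, 1 at 120, 2 at 240 and 15 on the average. With that term the counts against before were 15, 15, 3 and 2 in young liver at 48, 72, 96 and 120, 8, 7 and 5 in old liver at 72, 96 and 120, and 5 in the interaction. Without the 12 libraries with Y-linked transcripts the counts between the ages were 6 before, 3 at 72, 1 at 96, 2 at 120 and 2 at 240, and those against before were 14, 1 and 1 in young liver at 72, 96 and 120, 9 and 8 in old liver at 72 and 120, and 5 in the interaction. Fits of only the groups compared gave 0 at 48 and 1 at 96 between the ages, 22, 13 and 1 in young liver at 48, 72 and 96, and 4, 4, 1 and 1 in old liver at 48, 72, 96 and 120. Total-count scaling gave 1 and no filter on low counts 1 in old liver at 72. In the interaction DESeq2 gave 2, and the change to 48 tested alone gave 1.

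Leaving out 1 library at a time, counts between the ages ran from 0 to 1 before, 5 to 13 at 48 and 4 to 12 on the average, and were 0 in each such fit at 72, 96, 120 and 240. Against before they ran from 3 to 8 at 48 and 3 to 8 at 72 in young liver, with 0 at 96, 120 and 240. In old liver they ran from 17 to 27 at 48, 1 to 2 at 72, 1 to 2 at 96 and 1 to 3 at 120, with 0 at 240, and in the interaction from 0 to 5.

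The labels do not say what equal replicate numbers share, so the main fit used no pairing. Over 198 same-numbered pairs the mean correlation of deviations from the group means was 0.0553 (-0.378 to 0.578, 89 pairs over 0.1). For differently numbered pairs the mean was -0.0234. A mean correlation cannot exclude that some libraries are paired. With the number as a replicate block the counts were 10 between the ages at 48, 1 in old liver at 120 and 3 in the interaction. Depth limits the 15 tested members with a count of 3 or less in at least 1 library (Gsta1, Gsta2, Sult1c2, Sult1e1, Sult2a1, Sult2a2, Sult2a3, Sult2a4, Sult2a5, Sult2a7, Sult3a1, Sult5a1, Ugt1a10, Ugt2b37 and Ugt2b38), whose model log2 values depend on the prior count and are not bounds.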
